A study of Monodelphis domestica with 18 samples.

Results

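Opossum kidney (OK) cells were examined for 6 regulators of transcription known from liver and kidney tubule: HNF4A, HNF4G, PAX8, CEBPA, GATA3 and PPARGC1A. They were chosen by gene symbol, without regard to case, in the deposited table of gene counts. The table gave 1 row each for 5 of these 6 genes among 23899 genes, and CEBPA was not analysed here. OK cells are an established epithelial line from the kidney of the North American opossum (Didelphis virginiana) that is used as a model of the proximal tubule. The sample labels name the gray short-tailed opossum (Monodelphis domestica), whose genome served as the reference, and the effect of the species difference on the counts was not tested. All cells were grown on permeable filter supports in the same serum-containing medium, and no genetic change is described for any group. One day after plating (0 h), filters were either left under static conditions or moved to a shaker turning at 146 rpm, which exposes the apical surface to orbital shear stress (OSS). Static cells were collected at 0, 48 and 96 h and OSS cells at 12, 48 and 96 h, with 3 libraries in each of the 6 conditions and 18 libraries in all. Each library held RNA combined from 3 experiments, and no Static 12 h group was analysed here.

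HNF4A and HNF4G are related nuclear receptors that bind the promoters of genes for lipoproteins, glucose production and solute transport. HNF4A is a main regulator of hepatocyte identity, and in the mouse kidney it is needed for proximal tubule cells to mature. PAX8 is a paired-box factor of the early nephron and the thyroid that stays on in tubule epithelium, and GATA3 is a zinc-finger factor of the nephric duct that persists in distal tubule and collecting duct. PPARGC1A is a coactivator with no DNA-binding domain of its own that works through nuclear receptors and promotes the formation of mitochondria, of which the proximal tubule has many.

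Levels are given as CPM, the count of a gene relative to the total count of its library on a common scale, with TMM factors that correct each library for differences in composition. Total counts ran from 40154553 to 79745362 per library, with a median of 61146675. A gene was tested if it exceeded 1 CPM in at least 6 of the 18 libraries, which 12840 genes did, and was called at an adjusted p under 0.05 in the quasi-likelihood test of edgeR with Benjamini-Hochberg adjustment over those genes. Of the 5 members with a row, 4 passed this filter, and HNF4G did not. The proximal tubule label held for 8 of 10 marker genes, which passed the filter and summed to 5560 to 11300 CPM, while SLC5A1 and AQP1 stayed under it. Markers of other cell types summed to far less: 7.22 to 42.5 CPM for the thick ascending limb and distal tubule, 13.3 to 53.5 CPM for collecting duct, 40.2 to 118 CPM for podocytes, 17 to 113 CPM for fibroblasts and endothelium, and 7.19 to 12.8 CPM for leukocytes. Some of these sums differed by condition. At 96 h the thick ascending limb and distal tubule sum was 7.22 to 9.94 CPM in static cells and 28.6 to 42.5 CPM under OSS. For collecting duct it was 13.3 to 19.3 and 32.4 to 53.5 CPM, and for fibroblasts and endothelium 51.2 to 55.1 and 18.7 to 23.3 CPM.

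The members fell into an abundant and a scarce set. Per kilobase of the deposited gene length, the mean level over the 18 libraries was 111 CPM for HNF4A (ENSMODG00000016216) and 109 CPM for PAX8 (ENSMODG00000013770), above 93.4% and 93.2% of the tested genes. PPARGC1A (ENSMODG00000000549) lay at 2.51 CPM per kilobase and GATA3 (ENSMODG00000016735) at 1.40 CPM per kilobase, above 21.2% and 12.8% of the tested genes. HNF4G (ENSMODG00000006805) lay at 0.0554 CPM per kilobase.

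Culture condition moved PAX8 and GATA3, whereas no comparison called HNF4A or PPARGC1A in the fit without replicate number as a block. With the block HNF4A was called at 12 h of OSS against Static 0 h, and PPARGC1A from 12 to 48 h and from 48 to 96 h of OSS. In these comparisons the block called 5294, 5493 and 2466 of the 12840 tested genes. In cells kept static both PAX8 and GATA3 rose with time, and in cells under OSS both were lower than in static cells of the same age. Of the 4 tested members, 2 were called at 48 h of OSS against Static 48 h, where 48.0% of all tested genes were called, and 2 at 96 h of OSS against Static 96 h, where 51.6% were. None was called after 12 h of OSS against Static 0 h, beside 13.1% of all tested genes. In static culture 1 was called from 0 to 48 h (all genes 30.1%), 2 from 0 to 96 h (all genes 39.8%) and none from 48 to 96 h (all genes 0.0389%). Under OSS none was called from 12 to 48 h (all genes 27.1%), from 48 to 96 h (all genes 1.14%) or between OSS 96 h and Static 0 h (all genes 39.6%). The share of members called was therefore close to that of all genes in the comparisons of OSS with static culture at 48 and 96 h. Whether the OSS difference itself changed between 48 and 96 h was tested as well, and none of the 4 members and 0% of all genes were called (0 genes in edgeR, 1580 genes at an unadjusted p under 0.05, 225 genes in DESeq2).

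**Figure D1:**
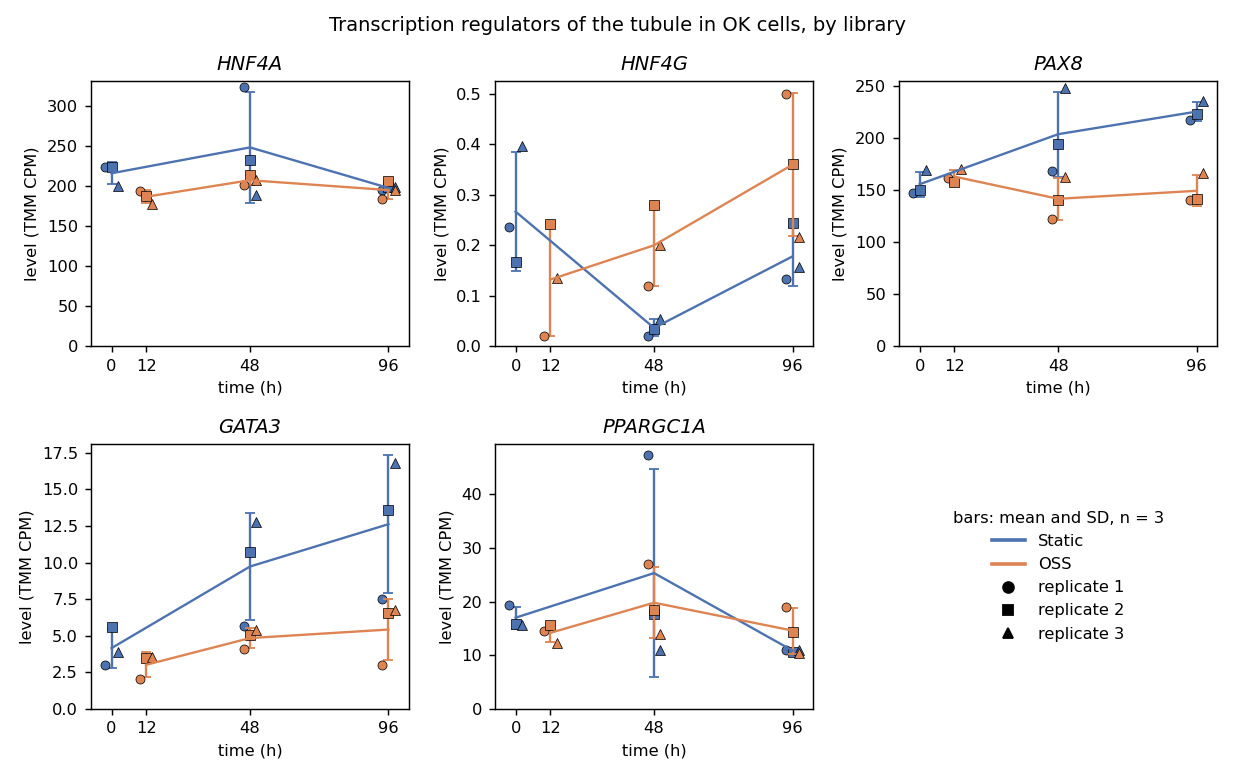
Level of each member (TMM CPM, vertical axis from 0) against time in hours in Static (blue) and OSS (orange) libraries, with points for replicates 1 to 3 and bars for the mean and SD of 3 libraries. PAX8 ended at 217 to 235 CPM in the Static 96 h libraries and at 140 to 166 CPM in the OSS 96 h libraries, while HNF4A lay at 195 to 199 CPM and 184 to 206 CPM in the same libraries.

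PAX8 rose in static cells and stayed near its starting level under OSS. Its level was 147, 150 and 169 CPM in static cells at 0 h, 168, 194 and 248 CPM after 48 h and 217, 223 and 235 CPM after 96 h, in the order of replicates 1, 2 and 3. Under OSS it was 161, 157 and 170 CPM at 12 h, 122, 140 and 162 CPM at 48 h and 140, 141 and 166 CPM at 96 h. Every OSS library of 48 or 96 h lay below every static library of the same time, so the groups did not overlap at either time. For this and the other members, the share of all tested genes without overlap is not given here. At these times 48.0% and 51.6% of all tested genes were called. After 96 h the mean was 149 ± 15 CPM under OSS and 225 ± 9.24 CPM in static culture (SD, n = 3 libraries each), a log2 fold change of -0.60 (SE 0.08, edgeR adjusted p = 0.000937) or 0.66 of the static level. In these bulk libraries fewer cells with PAX8 and less PAX8 RNA per cell cannot be told apart. The call held with any 1 of the 6 libraries left out.

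At 48 h the PAX8 difference was of similar size, with a log2 fold change of -0.52 (SE 0.13, edgeR adjusted p = 0.00334). It was missed when only the 6 libraries compared were fitted (edgeR adjusted p = 0.0562). From 0 to 96 h of static culture PAX8 rose by 0.53 on the log2 scale (SE 0.13, edgeR adjusted p = 0.00361), or 1.45-fold. From 0 to 48 h the log2 fold change was 0.37 (SE 0.13, edgeR adjusted p = 0.0631), which did not pass, but did with replicate number as a block (adjusted p = 0.0149) and without Static 48 h replicate 1 (adjusted p = 0.0136). OSS 96 h and Static 0 h differed by a log2 of -0.06 (SE 0.13, edgeR adjusted p = 0.73). Between 12 and 48 h under OSS the log2 fold change was -0.20 (SE 0.11, edgeR adjusted p = 0.203), and with the block PAX8 was called lower (adjusted p = 0.0262). Ordered by mean, the conditions ran from OSS 48 h through OSS 96 h, Static 0 h, OSS 12 h and Static 48 h to Static 96 h, and all 5 pairs of neighbors overlapped.

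GATA3 was scarce but moved further than PAX8. It lay at 2.97, 5.60 and 3.88 CPM in static cells at 0 h, 5.69, 10.7 and 12.8 CPM after 48 h and 7.48, 13.6 and 16.8 CPM after 96 h. Under OSS it lay at 2.03, 3.47 and 3.53 CPM at 12 h, 4.09, 5.05 and 5.37 CPM at 48 h and 2.98, 6.54 and 6.74 CPM at 96 h. The groups did not overlap at 48 h or at 96 h, although at 96 h the highest OSS library and the lowest static library were close. Static culture for 96 h raised GATA3 3.04-fold over Static 0 h, a log2 fold change of 1.60 (SE 0.38, edgeR adjusted p = 0.00333), and this call held without any 1 library. By 48 h of static culture the log2 fold change was 1.21 (SE 0.38, edgeR adjusted p = 0.0379), a call that was lost without Static 0 h replicate 1 or 3 or Static 48 h replicate 2 or 3, which left adjusted p-values of 0.0922 to 0.113. With replicate number as a block that change was 1.17 (adjusted p = 0.00193).

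Under OSS GATA3 was at 0.498 of the static level at 48 h and at 0.432 of it at 96 h. The log2 fold changes were -1.01 (SE 0.37, edgeR adjusted p = 0.0358) and -1.21 (SE 0.37, edgeR adjusted p = 0.0298). The call at 48 h was lost without any 1 OSS 48 h library and without Static 48 h replicate 2 or 3, with adjusted p-values of 0.0606 to 0.14. The call at 96 h was lost without OSS 96 h replicate 2 or Static 96 h replicate 2 or 3, with adjusted p-values of 0.0566 to 0.0996. Replicate 1 had the lowest GATA3 level in 6 of 6 conditions, a pattern shared by 7.89% of all tested genes. Within each number the log2 ratio of OSS 96 h to Static 96 h was -1.33, -1.06 and -1.32, and that of OSS 48 h to Static 48 h was -0.48, -1.08 and -1.25. With replicate number as a block the adjusted p was 0.000277 at 48 h and 3.15e-05 at 96 h. The block also brought calls from 12 to 48 h of OSS (log2 fold change 0.71, adjusted p = 0.00617) and at 12 h of OSS against Static 0 h (-0.43, adjusted p = 0.0494), for which the fit without it gave 0.68 (adjusted p = 0.15) and -0.43 (adjusted p = 0.368).

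Both PAX8 and GATA3 stood beside a higher podocyte marker sum in static cells. The 5 podocyte markers, of which NPHS1 and SYNPO stayed under the filter, summed to 47.4 to 72.7 CPM at the start, and in static culture to 83.3 to 118 CPM by 48 h and 78.8 to 103 CPM by 96 h. Under OSS the sums were 48.1 to 63.1 CPM (12 h), 40.2 to 48.2 CPM (48 h) and 51.2 to 58.1 CPM (96 h). Most of this sum came from PODXL, a sialomucin also made by other epithelia and endothelium, whose mean at 48 h was 72.4 CPM without and 24.3 CPM with OSS. NPHS1, which encodes the slit diaphragm protein nephrin and defines podocytes, lay between 0.05 and 0.303 CPM. The part of these markers in the PAX8 and GATA3 differences was not tested.

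**Figure D2:**
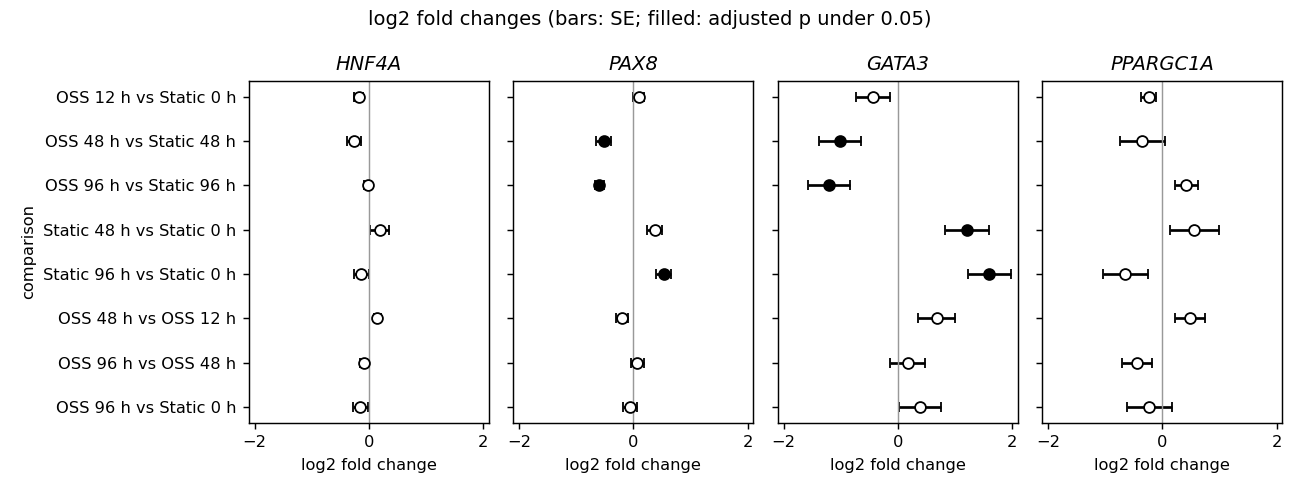
Log2 fold changes of the 4 tested members (horizontal axis) in 8 comparisons, with bars for 1 standard error and filled points for an edgeR adjusted p under 0.05. Filled points stand only in the PAX8 and GATA3 panels, to the left of 0 for OSS over static at 48 and 96 h and to the right for static culture over Static 0 h.

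HNF4A was abundant in all 18 libraries and was called in none of the 10 comparisons in the fit without the replicate block. It lay at 224, 224 and 200 CPM in static cells at 0 h, 324, 232 and 189 CPM after 48 h and 195, 199 and 199 CPM after 96 h. Under OSS it lay at 194, 188 and 178 CPM at 12 h, 201, 214 and 207 CPM at 48 h and 184, 206 and 195 CPM at 96 h. All but Static 48 h replicate 1 fell between 178 and 232 CPM. After 96 h the means were 195 ± 11.2 CPM under OSS and 198 ± 2.27 CPM in static culture (SD, n = 3 libraries each), with overlapping groups and a log2 fold change of -0.02 (SE 0.06, edgeR adjusted p = 0.766), which was 0.04 without the TMM factors. At 48 h the log2 fold change was -0.26 (SE 0.13, edgeR adjusted p = 0.118), and it was called without Static 48 h replicate 3 (-0.42, adjusted p = 0.00601). Without Static 48 h replicate 1 it was -0.02 (adjusted p = 0.854). At 12 h of OSS all libraries lay below those of Static 0 h, with a log2 fold change of -0.18 (SE 0.08, edgeR adjusted p = 0.162). With replicate number as a block that difference was called (adjusted p = 0.0319). Ordered by mean, HNF4A was lowest in OSS 12 h, followed by OSS 96 h, Static 96 h, OSS 48 h, Static 0 h and Static 48 h, and of these 5 pairs of neighbors only Static 96 h and OSS 48 h did not overlap.

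Genes that HNF4A is known to activate in liver or proximal tubule moved under OSS while HNF4A RNA itself was not called. From a list of 30 such genes, 24 were tested. This list and the other gene lists below were chosen with earlier results of these data known. Their shares beside those of all genes are therefore descriptions and not independent tests. After 96 h, 21 of the 24 were higher under OSS than in static cells, none was lower and 3 did not pass (APOC3, PKLR and F10). The median log2 fold change of the list was 1.23, beside 0.00 for all tested genes, and 87.5% of the list was called beside 51.6% of all genes. TTR, the gene of transthyretin, a plasma carrier of thyroid hormone, was higher under OSS by a log2 of 5.84 (SE 0.60, edgeR adjusted p = 0.000302). APOH, a plasma glycoprotein, was higher by 4.35 (SE 0.47), CYP4A11, a fatty acid omega-hydroxylase, by 3.47 (SE 0.21) and APOA1, the main protein of high-density lipoprotein, by 2.82 (SE 0.17). TTR and APOH were scarce without OSS, with APOH at 0.657 ± 0.384 CPM without and 13.1 ± 5.21 CPM with OSS at 96 h, whereas APOA1 averaged 234 ± 36.9 CPM without and 1650 ± 276 CPM with it (SD, n = 3 libraries each).

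**Figure D3:**
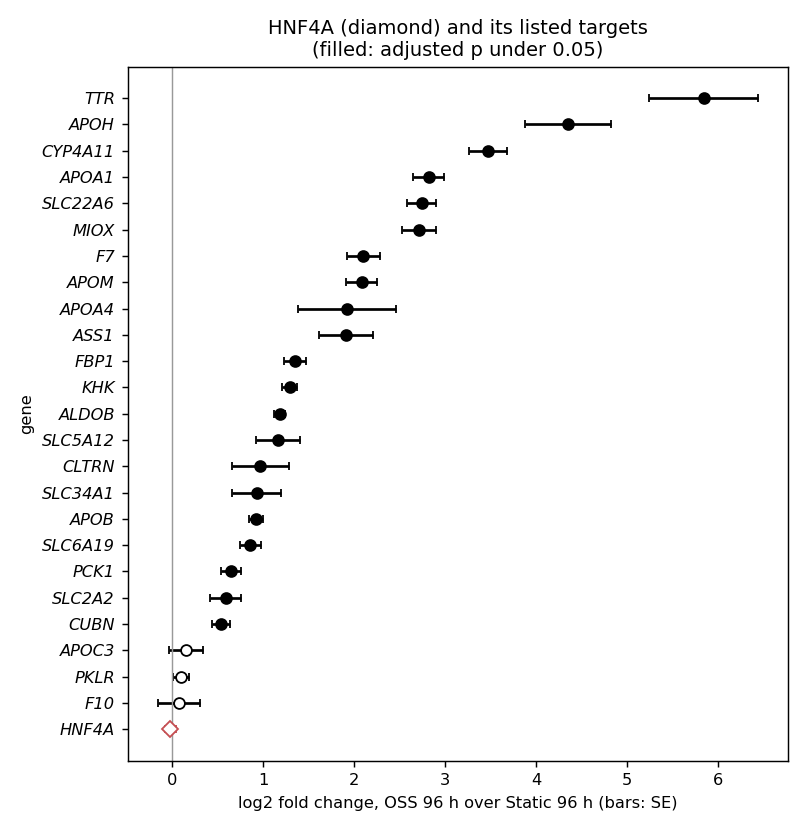
Log2 fold change of OSS 96 h over Static 96 h for HNF4A (diamond) and for its 24 tested target genes (circles), with bars for 1 standard error and filled symbols for an edgeR adjusted p under 0.05. HNF4A lies at -0.02 and the listed targets range from 0.07 for F10 to 5.84 for TTR. The list was chosen with earlier results of these data known.

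Genes of the proximal tubule within the list were higher under OSS too. The phosphate transporter SLC34A1 averaged 95.1 ± 9.67 CPM without and 181 ± 74.3 CPM with OSS at that time, a log2 fold change of 0.93 (SE 0.27, edgeR adjusted p = 0.0229) that did not stay called when Static 96 h replicate 2 or 3 was left out (adjusted p up to 0.0767) and that was 0.55 without OSS 96 h replicate 1. The organic anion transporter SLC22A6 averaged 5.82 ± 0.786 CPM without and 38.9 ± 6.84 CPM with OSS, a log2 of 2.74 (SE 0.16). FBP1, an enzyme of glucose production, was higher by 1.35 (SE 0.12). The count of targets higher under OSS at 96 h ranged from 17 to 21 with 1 library left out. At 48 h, 14 of the 24 were higher under OSS and none was lower (58.3% called, all genes 48.0%, median log2 fold change 0.69, all genes -0.03), with 12 to 16 higher when 1 library was left out. TTR (3.13, SE 0.41), APOH (2.99, SE 0.47), FBP1 (2.13, SE 0.16) and the apolipoprotein APOA4 (1.97, SE 0.56) had the largest log2 fold changes there. From 12 to 48 h of OSS 19 rose and 1 fell (83.3% called, all genes 27.1%). CYP4A11 (log2 fold change 4.19, SE 0.30), TTR (3.82, SE 0.49), APOH (3.30, SE 0.49) and the myo-inositol oxygenase MIOX (3.27, SE 0.19) rose furthest.

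In static culture listed targets of HNF4A were called in both directions. From 0 to 48 h 13 rose and 4 fell, 70.8% of the list beside 30.1% of all genes, with a median log2 fold change of 0.82. From 48 to 96 h 0 rose and 1 fell, 4.17% beside 0.0389% of all genes, with a median of -0.41. The count that fell was 0 to 1 with 1 library left out. With the block it was 7, beside 103 called among all genes. From 0 to 96 h 7 rose and 4 fell, 45.8% beside 39.8% of all genes and with a median log2 fold change of -0.02, with CYP4A11 (log2 fold change 2.31, SE 0.32) and the neutral amino acid transporter SLC6A19 (1.80, SE 0.19) among those that rose. Between OSS 96 h and Static 0 h 17 were higher and 2 lower, 79.2% beside 39.6% of all genes. The counts taken against Static 0 h share its libraries. At 12 h of OSS, where the static comparison is 12 h younger, 2 rose and 2 fell, 16.7% beside 13.1% of all genes. With replicate number as a block the counts became 10 and 5 of the 24 tested targets. The calls over all genes rose with the block too, from 1682 to 5294 of 12840.

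HNF4G, the paralog of HNF4A, was barely detected. Its raw counts were 13, 11 and 26 at the start, and in static culture 1, 2 and 3 by 48 h and 6, 14 and 9 by 96 h. Under OSS they were 1, 17 and 10 at 12 h, 6, 19 and 13 at 48 h and 20, 26 and 17 at 96 h. No library reached 1 CPM, and the largest mean was 0.359 CPM in OSS 96 h. Static 48 h was the lowest condition, at 0.0358 CPM of the summed libraries (95% exact Poisson interval 0.0131 to 0.0779), beside 0.205 CPM in OSS 48 h (0.145 to 0.282) and 0.326 CPM in OSS 96 h (0.250 to 0.417). These intervals cover counting error only.

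A fit without the filter on low counts, over 20910 genes, gave HNF4G a log2 fold change of 2.44 for OSS 48 h over Static 48 h (SE 0.72, edgeR adjusted p = 0.016). The same fit put Static 48 h below Static 0 h by a log2 of -2.80 (SE 0.62, edgeR adjusted p = 0.0101). At 96 h OSS and static culture differed by 0.98 (SE 0.49, edgeR adjusted p = 0.17).

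PPARGC1A was called in none of the 10 comparisons in the fit without the replicate block and was spread widely within Static 48 h. It lay at 19.4, 15.9 and 15.7 CPM in static cells at 0 h, 47.4, 17.7 and 10.9 CPM after 48 h and 11, 10.6 and 11 CPM after 96 h. Under OSS it lay at 14.6, 15.6 and 12.3 CPM at 12 h, 27.0, 18.4 and 14.0 CPM at 48 h and 19.0, 14.4 and 10.4 CPM at 96 h. Static 96 h was the lowest condition and did not overlap with OSS 12 h, the next in order of the means, while the remaining 4 pairs of neighbors overlapped. After 96 h the log2 fold change of OSS over static was 0.42 (SE 0.20, edgeR adjusted p = 0.126), and without OSS 96 h replicate 3 it was 0.62 and was called (adjusted p = 0.0113). Static 48 h replicate 1 carried 3.31 times the mean of the other Static 48 h libraries, a ratio reached by 0.358% of the tested genes. Without it the log2 fold change at 48 h turned from -0.35 to 0.46, and that of Static 48 h over Static 0 h from 0.56 to -0.27, none of which was called.

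With replicate number as a block PPARGC1A was called from 12 to 48 h of OSS (log2 fold change 0.43, adjusted p = 0.026) and from 48 to 96 h (-0.44, adjusted p = 0.0448). Without the block these were 0.48 (edgeR adjusted p = 0.214) and -0.45 (edgeR adjusted p = 0.377). Static 96 h lay below Static 0 h by -0.65 (SE 0.39, edgeR adjusted p = 0.206). When only those 6 libraries were fitted, that difference was called (-0.66, adjusted p = 0.00378).

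PPARGC1B, the closest relative of PPARGC1A, was higher at 48 and 96 h than at the start. Its mean was 50.2, 101 and 77.9 CPM in static cells at 0, 48 and 96 h and 55.3, 77.9 and 79.1 CPM in OSS 12, 48 and 96 h. Static 48 h was 2.00-fold over Static 0 h (log2 SE 0.16, edgeR adjusted p = 0.00225), and OSS 96 h exceeded Static 0 h by a log2 of 0.65 (SE 0.17, edgeR adjusted p = 0.00549). Static 96 h exceeded Static 0 h by 0.63 (SE 0.17, edgeR adjusted p = 0.00667), a call lost without Static 96 h replicate 3 (adjusted p = 0.0523). The change from 12 to 48 h of OSS (0.49, edgeR adjusted p = 0.0463) lost its call without any 1 library other than OSS 48 h replicate 1. From 48 to 96 h the log2 fold change was -0.40 in static culture (edgeR adjusted p = 0.341) and 0.02 under OSS (edgeR adjusted p = 0.963). OSS and static cells did not differ by a called amount at 96 h (0.02, SE 0.16, edgeR adjusted p = 0.933) or at 48 h (-0.38, SE 0.17, edgeR adjusted p = 0.0682). The difference at 48 h was called with the block (-0.40, adjusted p = 0.01) and without OSS 48 h replicate 3 or Static 48 h replicate 2 (adjusted p = 0.0307 and 0.0439). Per kilobase PPARGC1B averaged 22.7 CPM and PPARGC1A 2.51 CPM.

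PAX2, the relative of PAX8, stayed under the filter, between 0.0416 and 0.980 CPM, with its highest level in Static 48 h replicate 1.

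**Figure D4:**
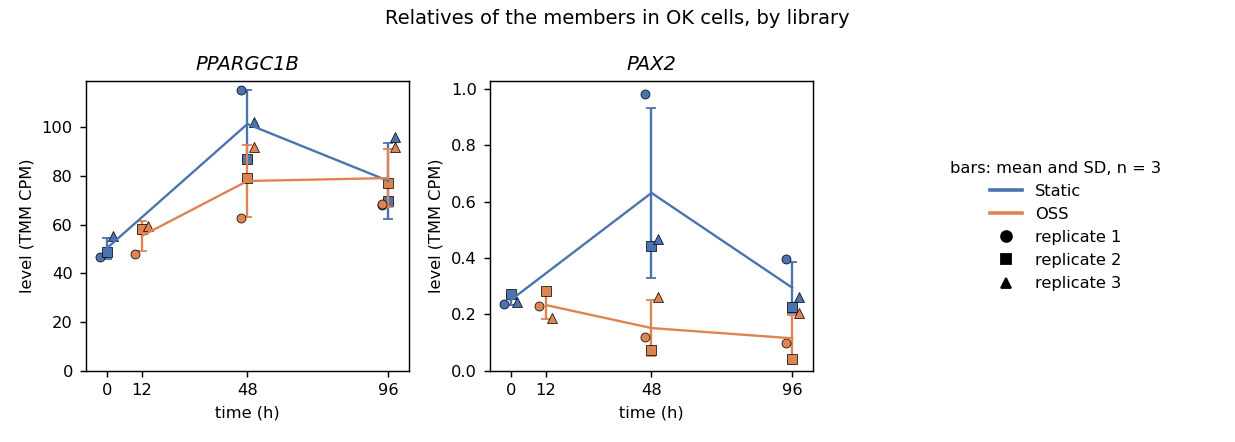
Level of PPARGC1B and PAX2, relatives of PPARGC1A and PAX8 (TMM CPM, vertical axes from 0 with their own scales), against time in hours, drawn as for the members. PPARGC1B lay between 46.7 and 115 CPM in all libraries, and PAX2 did not exceed 0.980 CPM.

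Partners and targets of PPARGC1A moved in both directions. Of 31 listed genes 27 were tested, and at 96 h 11 were higher under OSS, 3 lower and 13 did not pass (median log2 fold change 0.10, all genes 0.00). The share called was 51.9%, beside 51.6% of all genes. GPT2, a mitochondrial alanine aminotransferase (2.31, SE 0.16), and UCP2, a mitochondrial inner-membrane carrier (2.09, SE 0.14), were furthest above static cells, with the related coactivator PPRC1 (1.22, SE 0.18) and the nuclear receptor PPARG (1.07, SE 0.10). ESRRG, an orphan nuclear receptor that binds PPARGC1A, averaged 68.0 ± 39.5 CPM without and 30.6 ± 6.67 CPM with OSS at 48 h (SD, n = 3 libraries each), a log2 fold change of -1.15 (SE 0.30, edgeR adjusted p = 0.00535) that was -0.60 without Static 48 h replicate 1 (adjusted p = 0.038). At 48 h 12 of the 27 were higher under OSS and 4 lower (59.3%, all genes 48.0%), with GPT2 (1.99, SE 0.17), UCP2 (1.40, SE 0.32) and CPT1A (0.87, SE 0.10), the carnitine palmitoyltransferase of fatty acid import into mitochondria, among those higher. Between OSS 96 h and Static 0 h 16 of the 27 were higher and 4 lower (74.1%, all genes 39.6%), and between Static 96 h and Static 0 h 6 were higher and 7 lower (48.1%, all genes 39.8%).

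Of the C/EBP family, basic leucine zipper factors that share a binding motif with CEBPA, CEBPB rose in static culture. Its mean was 5.58 ± 0.722, 18.4 ± 9.08 and 28.7 ± 2.40 CPM in static cells at 0, 48 and 96 h and 5.95 ± 1.65, 8.66 ± 3.66 and 13.5 ± 2.62 CPM in OSS 12, 48 and 96 h (SD, n = 3 libraries each). The rise from Static 0 h to Static 96 h was 2.36 on the log2 scale (SE 0.35, edgeR adjusted p = 9.39e-05). OSS 96 h lay below Static 96 h by -1.09 (SE 0.15, edgeR adjusted p = 0.000863). CEBPD, which like CEBPB takes part in acute phase responses, averaged 136 ± 16.7 CPM with and 129 ± 23.5 CPM without OSS at 96 h and was not called there (0.07, SE 0.15, edgeR adjusted p = 0.724).

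The list of the C/EBP family and other liver-enriched factors held 22 genes, of which 18 were tested. At 96 h 11 were higher under OSS, 2 lower and 5 did not pass (median log2 fold change 0.45, all genes 0.00), and 72.2% were called beside 51.6% of all genes. CREB3L3, a membrane-bound factor of hepatic lipid metabolism, averaged 61.8 ± 3.28 CPM with and 16.4 ± 0.797 CPM without OSS at 96 h (log2 fold change 1.91, SE 0.07, edgeR adjusted p = 1.16e-05). The cut-homeobox factor ONECUT2 (1.32, SE 0.11) and the orphan nuclear receptor NR2F2 (1.05, SE 0.11) were higher too. CEBPZ was counted in the list by its symbol, and whether it is a basic leucine zipper factor was not examined. It was among the genes higher under OSS at 48 h (0.73, SE 0.09) and at 96 h (0.77, SE 0.06). FOXA1, a forkhead factor that opens chromatin in liver, was higher under OSS at 48 h (1.48, SE 0.19, edgeR adjusted p = 1.63e-05), when 8 genes of the list were higher and 1, CEBPB, was lower, 50% of the list beside 48.0% of all genes. CEBPB (-1.09, SE 0.33, edgeR adjusted p = 0.0143) lost that call without OSS 48 h replicate 1 or Static 48 h replicate 3.

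Factors of nephron lineage and segments were mostly low or not called in the fit without the replicate block. Of 30 listed genes 15 were tested. At 96 h 2 were higher under OSS and 3 lower, 33.3% of the tested genes of the list beside 51.6% of all genes (median log2 fold change -0.04). The lower count was 5 without OSS 96 h replicate 1 and 1 without any single one of the other 5 libraries. At 48 h 1 was higher and 3 lower. With replicate number as a block 3 were higher and 5 lower at 96 h, and 3 higher and 7 lower at 48 h. The block called 8309 and 7655 of all 12840 tested genes there. SALL1 was higher under OSS at 96 h (0.38, SE 0.05, edgeR adjusted p = 0.000696). WT1 was called lower at 96 h with the block (-0.70, adjusted p = 3.53e-05) but not without it (edgeR adjusted p = 0.105). IRX3, an Iroquois homeobox factor that patterns the nephron in the frog, lay at 1.98, 6.13 and 6.51 CPM in static cells at 0, 48 and 96 h and at 1.92, 1.37 and 1.23 CPM in OSS 12, 48 and 96 h. At 96 h its log2 fold change was -2.42 (SE 0.21, edgeR adjusted p = 0.000161). TFCP2L1, a factor of distal and collecting duct cells, was higher under OSS by 1.04 (SE 0.33, edgeR adjusted p = 0.0323), a call lost without any 1 library other than OSS 96 h replicate 3. FOXC1, a forkhead factor of kidney development in the mouse, averaged 3.47 ± 0.526 CPM with and 4.75 ± 0.326 CPM without OSS (SD, n = 3 libraries each), a log2 fold change of -0.46 (SE 0.15, edgeR adjusted p = 0.0374) that stayed called only without OSS 96 h replicate 1. SOX9, an injury-responsive factor of the tubule, rose in static culture from 0 to 96 h (0.90, SE 0.23, edgeR adjusted p = 0.00511). It was also higher in OSS 96 h than in Static 0 h (0.82, SE 0.23, edgeR adjusted p = 0.00897). It was lower under OSS at 48 h (-0.73, SE 0.23, edgeR adjusted p = 0.015), a call lost without OSS 48 h replicate 1 or Static 48 h replicate 1, and at 96 h lay at 61.7 ± 12.3 CPM under OSS and 65.2 ± 4.93 CPM in static cells.

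Known targets of PAX8 and GATA3 did not move one way. Of 22 listed genes 14 were tested, and at 96 h 5 were higher under OSS, 4 lower and 5 did not pass (64.3% called, all genes 51.6%, median log2 fold change -0.13, all genes 0.00). SLC5A5, the sodium iodide symporter that PAX8 activates in thyroid cells, lay at 0.534, 8.57 and 15.3 CPM in static cells at 0, 48 and 96 h and at 0.412, 2.08 and 4.46 CPM in OSS 12, 48 and 96 h. Its log2 fold change for OSS 96 h over Static 96 h was -1.76 (SE 0.40, edgeR adjusted p = 0.00827), and that at 48 h was -2.03 (SE 0.90, edgeR adjusted p = 0.0746). With replicate number as a block SLC5A5 was called at 48 h (-1.98, adjusted p = 0.00146). TG, which encodes thyroglobulin and is likewise activated by PAX8 in thyroid cells, lay at 1.61, 6.59 and 12.5 CPM in static cells at 0, 48 and 96 h and at 0.960, 1.89 and 6.64 CPM in OSS 12, 48 and 96 h. TG was lower under OSS at 48 h (-1.79, SE 0.48, edgeR adjusted p = 0.006), and at 96 h the difference passed only with the block (-0.91, edgeR adjusted p = 0.122, with the block 0.000495) or without OSS 96 h replicate 3. Both genes were higher in OSS 96 h than in Static 0 h, where PAX8 differed by -0.06. SLC5A5 was higher there by a log2 of 3.05 (SE 0.99, edgeR adjusted p = 0.0233), a call lost without Static 0 h replicate 1 or 2 or OSS 96 h replicate 3, and TG by 2.05 (SE 0.48, edgeR adjusted p = 0.0033). The block gave 3.18 for SLC5A5 in that comparison (adjusted p = 0.000161).

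CDH16, the kidney-specific cadherin and also a PAX8 target, was higher under OSS at 96 h, when PAX8 was lower. It lay at 402 ± 26.7, 989 ± 112 and 450 ± 26.6 CPM in static cells at 0, 48 and 96 h and at 528 ± 124, 1450 ± 84.4 and 1280 ± 205 CPM in OSS 12, 48 and 96 h (SD, n = 3 libraries each), with a log2 fold change of 1.51 at 96 h (SE 0.12, edgeR adjusted p = 0.000116). KRT7, a keratin of ductal and urothelial epithelium, averaged 120 ± 29.5 CPM without and 10.8 ± 3.49 CPM with OSS at 96 h, a log2 fold change of -3.47 (SE 0.29, edgeR adjusted p = 0.000128). UPK1B, a uroplakin of the same epithelium, was higher under OSS (1.20, SE 0.24, edgeR adjusted p = 0.00478). KRT7 and UPK1B thus moved in opposite directions at 96 h, and did so at 48 h as well (-3.94, SE 0.38, and 1.31, SE 0.26).

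Part of the spread of PAX8, GATA3 and PPARGC1A went with the replicate number. PAX8 was highest in replicate 3 in 6 of 6 conditions, a pattern that 2.03% of all tested genes shared. PPARGC1A was lowest in replicate 3 in 5 of 6 conditions and highest in replicate 1 in 4 of 6. Static 48 h replicate 1 was also the highest library for HNF4A, at 1.54 times the mean of the other Static 48 h libraries (8.79% of tested genes reached that ratio). In the same library GATA3 was at 0.485 times and PAX8 at 0.761 times the mean of the others.

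**Figure D5:**
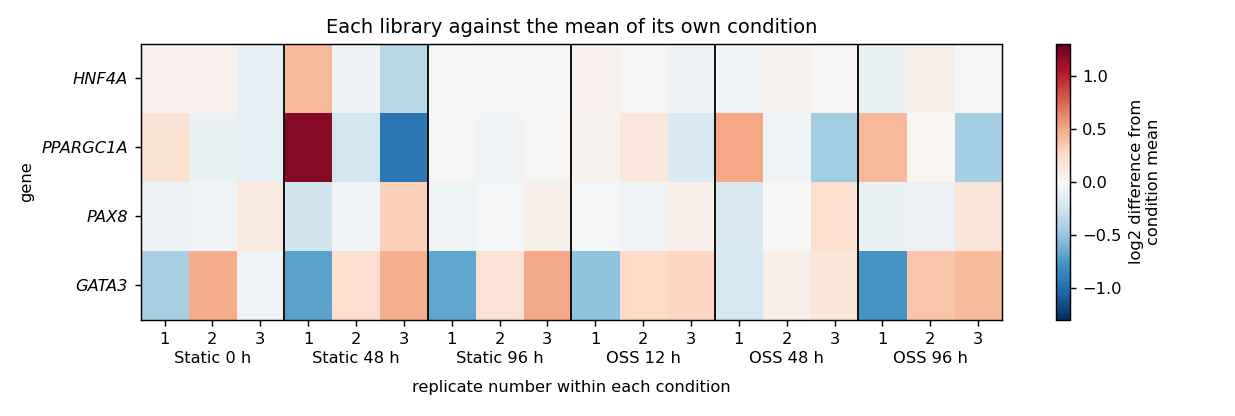
Log2 difference of each library from the mean of its own condition (color, red above and blue below) for the 4 tested members in the 6 conditions of 3 replicates each. GATA3 is blue in replicate 1 of all 6 conditions, and the darkest red cell is PPARGC1A in Static 48 h replicate 1, at 47.4 CPM.

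The genes whose log2 levels tracked a member most closely were sought among 9920 genes over the 18 libraries, which share conditions and replicate numbers, so the coefficients describe these libraries only. For PAX8 the closest were DUSP15 (Pearson r = 0.959), a phosphatase, ADGRG1 (0.940), an adhesion receptor, and OSBPL6 (0.935), an oxysterol-binding protein relative, and the most opposed were AIF1L and PROSER2 (both -0.949) and SELENBP1 (-0.948). For GATA3 they were TREH (0.967), the brush-border enzyme trehalase, ENTPD2 (0.959), an ectonucleotidase, and RARRES2 (0.957), the gene of the secreted protein chemerin, against XPO1 (-0.948), the nuclear export receptor, C19ORF53 (-0.944) and PRKRIP1 (-0.943). For PPARGC1A they were SEMA4G (0.942), NCOA3 (0.896), a nuclear receptor coactivator, and PRKG1 (0.891), a cyclic GMP-dependent kinase, against PLS3 (-0.955), an actin bundler, LSR (-0.904) and SLC7A6 (-0.897), an amino acid transporter. For HNF4A they were RHOT1 (0.936), a mitochondrial transport protein, SIK2 (0.914), a kinase, and IGF2BP1 (0.909), an RNA-binding protein, against CDC37L1 (-0.853) and RIOK2 (-0.850). Without Static 48 h replicate 1 the coefficients with HNF4A were 0.755 for RHOT1, 0.678 for SIK2 and 0.657 for IGF2BP1, and -0.541 for CDC37L1 and -0.538 for RIOK2.

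Among the members PAX8 and GATA3 tracked each other, with r = 0.749 over 18 libraries and the same value without Static 48 h replicate 1. HNF4A and PPARGC1A gave 0.756 over all libraries and 0.376 without Static 48 h replicate 1. HNF4A gave -0.097 with PAX8 and 0.095 with GATA3. PPARGC1A gave -0.538 with PAX8 and -0.37 with GATA3 over all libraries, and -0.778 and -0.548 without Static 48 h replicate 1.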

How the data were processed

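RNA was sequenced from OK cells in 6 conditions of 3 libraries each, and groups followed the condition and time in the sample labels. Per the labels and the paper's methods, the authors depleted ribosomal RNA, prepared stranded libraries, sequenced paired reads of 75 bp, trimmed them with cutadapt, aligned them to the MonDom5 genome with TopHat2 and used featureCounts (Subread) to count the reads of each gene. Raw counts were deposited, as whole numbers for 23899 genes, with a symbol and a gene length. Tool versions, the strand setting of the counting and the annotation release are not given in the sources used here, so reads of an antisense transcript at a member could be counted with it. No genome of that build was used, so positions and sequences are not given.

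The full sheet was used. A sheet of 20503 genes with 1 row per gene name was an alternative, and the 2 smaller sheets of copied counts and averages were left out. Members and lists were chosen with earlier results of these data known. The rule for named genes was all members, their relatives PAX2 and PPARGC1B, up to 4 called genes of each list with the largest change in a comparison, and the 3 genes with the highest and the 3 with the lowest correlation with each tested member. Some genes that this rule or the lists would include are not reported here and were taken out of the lists and their counts. APOC3, PKLR, F10, SLC34A1, CEBPD, CEBPZ and the podocyte markers were named after their values were seen.

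Genes over 1 CPM in at least 6 libraries were tested in R 4.3.3 with edgeR 4.0.16 (TMM factors, trended dispersion, quasi-likelihood test with the legacy option, no replicate block) and limma 3.58.1. The first and last comparison of OSS with static culture (12 h with 0 h, and 96 h) used the 6 libraries compared, time steps within an arm on the 9 libraries of that arm, and all others on 18. The SE was obtained from the log2 fold change and the F statistic, as the absolute change over the root of F. The procedure was tested on simulated counts for the comparison of OSS with static culture at 96 h. These were drawn independently for each library, so that test did not cover the pairing by replicate number. For likeness, log2 CPM with a prior count of 2 was used, for genes of a mean of at least 1. Alternatives were DESeq2 1.42.0, other scaling, no filter, the other sheet, other sets of libraries, each library left out and a replicate block.

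Pairing by replicate number was checked on the deviations of libraries from their condition mean over the tested genes. All 45 same-numbered pairs across conditions correlated over 0.1 (0.279 to 0.790, median 0.548), while pairs of other numbers had a median of -0.466, and all 18 libraries were closest to one of their own number. The numbers were therefore taken to pair the samples. Calls given without mention of the block come from the fit that does not use this pairing. The fits with 1 library left out do not use it either. Replicates are described as independent samples, each combined from 3 experiments.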

Additional observations from a re-analysis of the deposited data

How the results depend on the processing

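The number of the 4 tested members called depended on the settings as follows. With the replicate block it was 2 instead of 0 at 12 h of OSS against Static 0 h, 3 instead of 0 from 12 to 48 h of OSS, 1 instead of 0 from 48 to 96 h of OSS and 2 instead of 1 from 0 to 48 h of static culture, and the block changed no other count or call of a member. In the 4 comparisons just named, in that order, the block called 5294, 5493, 2466 and 5012 of the 12840 tested genes. From 0 to 48 h of static culture the count of members was also 2 with DESeq2 (all genes 4541). It was 2 there as well with all 18 libraries in the fit (all genes 4889). Without the expression filter it was 2 of 5 there, beside 3457 of 20910 genes. At 48 h of OSS against Static 48 h it was 1 instead of 2 when only the 6 libraries compared were fitted (all genes 4532). Without the filter it was 3 of 5 there, with HNF4G, beside 5965 of 20910 genes. From 0 to 96 h of static culture it was 3 instead of 2, with PPARGC1A, when only those 6 libraries were fitted (all genes 4736). With 1 library left out it ranged from 1 to 2 at 48 h, from 1 to 3 at 96 h of OSS against Static 96 h and from 0 to 2 from 0 to 48 h of static culture. The counts over all genes ranged there from 5306 to 6052, from 5438 to 6354 and from 2750 to 4109. The cause was not tested. Of the log2 fold changes of single members with 1 library left out, 235 kept their direction and side of the threshold, 12 lost a call, 3 gained one and 14 changed sign. Members' calls did not change without scaling factors, with RLE factors or with 1 row per gene name.

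Changes of sign were limited to log2 differences that were never called. HNF4A at 96 h was 0.04 without scaling factors. With 1 library left out HNF4A ranged from -0.06 to 0.02 at 96 h and from -0.06 to 0.36 from Static 0 h to 48 h, PPARGC1A from -0.71 to 0.46 at 48 h of OSS against static, from -0.27 to 0.93 from Static 0 h to 48 h and from -0.05 to 1.13 for the change of the OSS difference between 48 and 96 h, PAX8 from -0.02 to 0.18 from 48 to 96 h of OSS, from -0.15 to 0.00 for OSS 96 h against Static 0 h and from -0.25 to 0.05 for that change of the difference, and GATA3 from -0.02 to 0.46 from 48 to 96 h of OSS and from -0.47 to 0.08 for that change of the difference. Static 48 h replicate 1 gave the reversed value of HNF4A and PPARGC1A in each of these that involve it.

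Over all genes, 1682 were called at 12 h of OSS, but 5294 with the block, 2788 with DESeq2, 3107 with all 18 libraries and 71 to 1695 with 1 library left out. The 3480 genes from 12 to 48 h of OSS became 5493 with the block and 2173 to 3107 with 1 library left out. The 147 genes from 48 to 96 h of OSS became 2466 with the block, 1105 with DESeq2, 310 with all 18 libraries and 1 to 15 with 1 left out, and the 5 from 48 to 96 h of static culture became 103, 286, 59 and 0 to 13, and 8 without the filter. The change of the OSS difference, with 0 genes, gave 138 with the block, 225 with DESeq2 and up to 24 with 1 library left out. Without scaling factors the median of all genes shifted by -0.15 between Static 96 h and Static 0 h, and the share of called genes that rose there was 30.8% instead of 51.2%. That share was 36.6% instead of 49.0% for OSS 96 h against Static 0 h, 36.0% instead of 52.8% from 12 to 48 h of OSS and 37.2% instead of 49.2% from 0 to 48 h of static culture. With 3 libraries per condition, and counts of 26 or less for HNF4G, small differences of scarce members could not be seen.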
